A study of Homo sapiens with 23 samples.

Results

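The long arm of chromosome 17 from 30 Mb upward (hg38) is described here by the chromatin loops listed on it in 2 libraries of T47D, a human breast cancer cell line that carries the progesterone receptor. A loop was included where its chromosome was 17 and its lower bin began at 30000000 or above, which gave 823 of 9591 loops in T30 and 674 of 7075 loops in T0. Loops were measured by HiChIP, which ligates DNA ends that lie close in the nucleus and enriches the ligated fragments with an antibody, here one against the progesterone receptor (PR). The T30 library carries PR5020 in its title, and the protocol names R5020, a synthetic progestin, for cells held without serum; the T0 library carries no agent. Neither the dose nor the unit of the time is stated for these libraries, and the identity of the cells was not checked against marker expression. Each group is 1 library, so no difference below has a replicate check, and intervals are at 95% and cover counting error only. A contact is a read pair between 2 bins of 5 kb, and the depth of both libraries is unknown beyond the listed loops.

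The progesterone receptor is a nuclear receptor that binds DNA on ligand binding and recruits coactivators, and its sites lie largely at enhancers, which reach promoters through loops. The long arm of chromosome 17 is rich in genes. It holds ERBB2 and its neighbours, the type I keratin cluster, the HOXB cluster of homeodomain factors, the STAT3 and STAT5 genes of cytokine and prolactin signalling, and a stretch often gained in breast tumours. A bin joined to many other bins is called a hub here, with a minimum of 5 distinct partner bins.

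Sequences at the leading ends are given first. Of 777 protein-coding genes on the stretch, 535 had a promoter window in the RefSeq table of GRCh38.p14. The promoters shown are those at hub bins that the results turn on: KRT37, a hair keratin (chr17:41424586-41424835, minus strand), NME1, a nucleoside diphosphate kinase (chr17:51153309-51153558, plus strand), and PITPNC1, a phosphatidylinositol transfer protein (chr17:67377031-67377280, plus strand). Each run is the 250 bases before the gene's start, 5′ to 3′ on the gene's strand, and capitals mark a TATAAA box or a half-site of the steroid receptor element (AGAACA or TGTTCT).
KRT37: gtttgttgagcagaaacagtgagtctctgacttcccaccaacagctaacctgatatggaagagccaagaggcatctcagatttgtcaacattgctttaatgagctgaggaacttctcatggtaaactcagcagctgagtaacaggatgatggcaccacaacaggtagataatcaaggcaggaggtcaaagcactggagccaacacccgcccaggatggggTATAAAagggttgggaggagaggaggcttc
NME1: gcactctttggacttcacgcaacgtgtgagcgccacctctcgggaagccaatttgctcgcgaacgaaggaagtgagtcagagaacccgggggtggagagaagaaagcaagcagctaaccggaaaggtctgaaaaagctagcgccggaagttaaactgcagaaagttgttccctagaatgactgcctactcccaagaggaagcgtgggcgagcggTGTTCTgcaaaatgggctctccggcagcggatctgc
PITPNC1: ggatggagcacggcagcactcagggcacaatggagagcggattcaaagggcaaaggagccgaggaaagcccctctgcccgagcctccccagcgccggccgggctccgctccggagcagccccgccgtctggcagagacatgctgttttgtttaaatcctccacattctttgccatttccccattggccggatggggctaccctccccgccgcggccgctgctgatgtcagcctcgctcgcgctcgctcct
The half-site, searched on both strands, was held by 14.8% of all 35116 promoter windows of 300 bases in the table and by 71 of 735 windows on 17q (9.66%). TATAAA, searched on the gene's strand alone, was held by 7.33% of all windows and by 88 of the 735 (12.0%). The KRT37 run thus shows a TATA box and no half-site, the NME1 run shows 1 half-site, and the PITPNC1 run shows none of these motifs. Promoters at other hub bins, of DHX8, SPATA20, TOB1, VEZF1, CEP112 and SLC38A10, are not shown and held none of these motifs either.

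The microRNAs of 17q were also placed on the loop bins. Shown are 3 of those in or next to a hub bin or in HOXB3, chosen after their values were seen. All are RefSeq mature sequences of GRCh38.p14 with the seed, bases 2 to 8, in capitals.
miR-2117: uGUUCUCUuugccaaggacag
miR-10a-5p: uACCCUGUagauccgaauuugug
miR-21-5p: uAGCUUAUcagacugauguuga
No seed is shared among these 3. Of 68 hairpins on 17q, each placed in the bin that holds its lower coordinate, 19 lay in a bin with a loop in T30 and 13 in T0, with 6 in both. No share over the hairpins of the genome is given beside these counts, so they show neither excess nor lack on 17q. The MIR2117 bin (43440001 to 43445000) was a hub of 6 partners in T30 and had 0 in T0. With the neighbouring bins joined, MIR2117 had 6 in T30 and 2 in T0. The MIR10A bin, inside HOXB3, had 1 partner in T30 and 0 in T0. Joined with its neighbours it had 1 in T30 and 2 in T0, so its direction turned. MIR21, an oncogenic microRNA at the VMP1 locus, had 0 partners in its own bin in both libraries, and with the neighbouring bins joined it had 5 in T30 and 1 in T0. MIR3678, whose sequence is not shown, lay next to a T0 hub bin, from 75410001. It had 2 partners in T30 and 0 in T0 in its own bin. With the neighbouring bins joined it had 2 in T30 and 6 in T0.

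The 823 loops of T30 held 12886 contacts, and the 674 loops of T0 held 15656. They made up 8.58% of the listed loops and 9.51% of the listed contacts in T30, against 9.53% and 12.3% in T0. Density was 15.5 loops per Mb in T30 and 12.7 in T0, where the rest of the genome had 2.89 in T30 and 2.11 in T0. Per 100 protein-coding genes there were 106 loops in T30 and 86.7 in T0, against 45.5 and 33.2 over the rest of the genome in T30 and T0. The long arm was thus denser per gene as well as per length in both libraries. The number of loops in T30 per loop in T0 was 1.22 (1.10 to 1.35) on 17q and 1.37 (1.33 to 1.41) elsewhere, with intervals that overlap. At spans of 20 kb or more the ratio was 1.45 (1.30 to 1.62) on 17q and 1.48 (1.43 to 1.53) elsewhere. With both genome-wide lists brought to equal length the 17q ratio was 0.939, so its direction rests on the length of the lists. The authors' largest listed p-value on 17q was 2.8e-05 in T30 and 0.000233 in T0, so the lists do not end at the same p.

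Loop ends were unevenly spread over the 54 windows of 1 Mb. The window from 81 Mb led in T30 with 113 ends, against 36 in T0. The window from 41 Mb, which holds most of the type I keratin genes, followed in T30 with 101 ends, against 67 in T0, and the window from 50 Mb had 84 in T30 and 57 in T0. In T0 the window from 40 Mb led, with 72 ends in T30 and 86 in T0, before the window from 75 Mb with 60 in T30 and 69 in T0. The order of the windows was similar in both libraries, with a Spearman correlation of 0.832 over 54 windows that share gene content and the antibody. Ends also followed gene number: the correlation with protein-coding genes per window was 0.752 in T30 and 0.709 in T0. The windows from 33, 52 and 53 Mb held no end in either library and 1 protein-coding gene each.

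**Figure D1:**
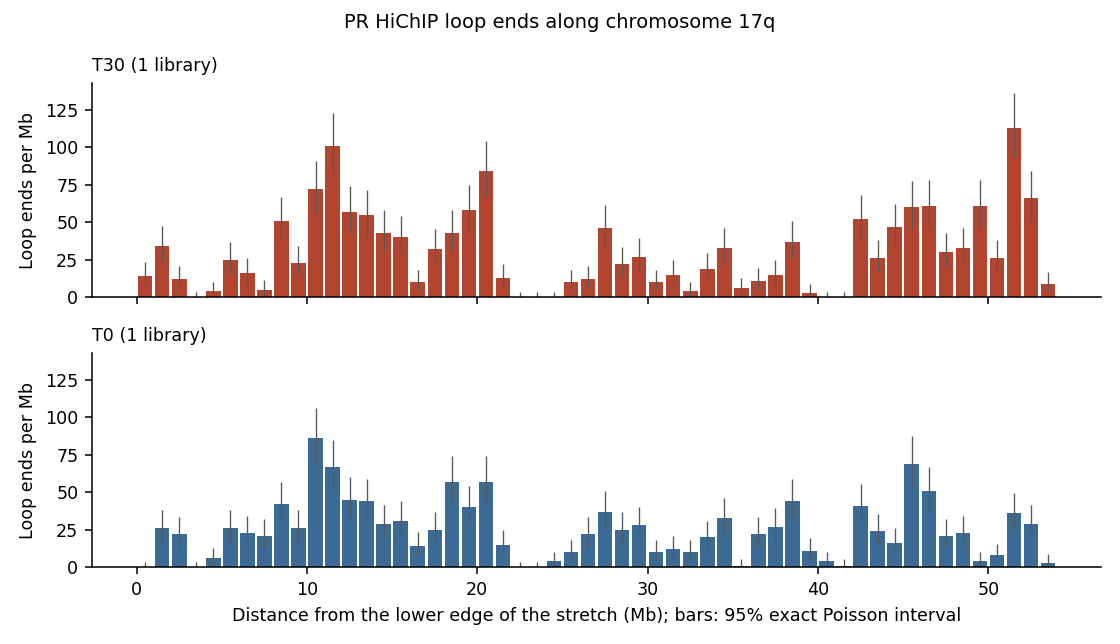
Loop ends per 1 Mb window along 17q, T30 above and T0 below, with exact 95% Poisson intervals; the x axis gives Mb from the lower edge of the stretch. The window at 51 to 52 Mb from that edge has 113 ends in T30 and 36 in T0, and every one of the last 5 windows is higher in T30.

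The distal end of the arm held most of the gain in number. From 79 Mb upward T30 listed 137 loops and T0 listed 40, a ratio of 3.42 (2.39 to 5.00), and below 79 Mb the lists held 686 loops in T30 and 634 in T0, a ratio of 1.08 (0.970 to 1.21). All 5 windows from 79 Mb had more ends in T30, and their ends summed to 275 in T30 and 80 in T0. The window from 79 Mb had 61 ends in T30 and 4 in T0, the widest ratio of any window with ends in both at 15.2 (5.66 to 57.8). Its genes included RBFOX3, a neuronal splicing factor, with 13 partner bins in T30 and 1 in T0. TBC1D16, a Rab GTPase-activating protein, had 10 partners in T30 and 0 in T0, and CBX8, a Polycomb gene, had 4 partners in T30 and 0 in T0. The boundary of 79 Mb was chosen after the windows had been seen.

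Further genes of the distal end moved the same way. BAIAP2, an adaptor between membranes and actin, had 8 partners in T30 and 1 in T0. AATK, a kinase, had 7 partners in T30 and 0 in T0, and CCDC57, a centrosomal coiled-coil gene, had 107 contacts in T30 and 13 in T0. Of 86 protein-coding genes from 79 Mb, 46 had more partners in T30 and 14 had fewer. Among those with fewer were NPLOC4, a cofactor of the p97 ATPase, with 2 in T30 and 5 in T0, and TSPAN10, a tetraspanin, with 0 in T30 and 4 in T0. FASN, the fatty acid synthase gene, had 1 partner in each library, with 23 contacts in T30 and 62 in T0. At spans of 20 kb or more the count was 52 genes with more partners in T30 and 8 with fewer; NPLOC4 then had 2 partners in T30 and 1 in T0, TSPAN10 had 0 in T30 and 1 in T0, and FASN had 1 in T30 and 0 in T0.

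A surplus of T30 loops at chromosome ends was not confined to 17q. Over the last 4.24 Mb of the 22 other chromosomes, autosomes and X, T30 listed 822 loops and T0 listed 349, a ratio of 2.36 (2.08 to 2.68), against 1.30 (1.26 to 1.35) over the rest of them. In 9 of the 10 other chromosomes with at least 10 such loops in each list, the distal ratio was above that of the rest. Among these 9 it ran from 5.19 against 2.25 on chromosome 9 to 1.33 against 1.31 on chromosome 5. On chromosome 15 it was lower, 0.773 against 0.975. Chromosome 3 alone held 255 of the 822 distal loops in T30 and 133 of the 349 in T0. The lower border of the arm differed in a similar way: T0 listed no end on chromosome 17 between 17650001 and 31420000, a gap of 13.8 Mb, while T30 listed 14 ends from 30 to 31 Mb and a further 45 loops beginning from 26 to 30 Mb.

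Other windows moved in both directions. Of the 49 windows below 79 Mb, 20 were higher in T30, 23 were lower and 6 were equal. The window from 74 Mb had 47 ends in T30 and 16 in T0, and its leading genes were SLC38A12, of an amino acid transporter family, with 7 partners in T30 and 1 in T0, and GPRC5C, an orphan G protein-coupled receptor, with 5 in T30 and 1 in T0. The window from 37 Mb had 5 ends in T30 and 21 in T0. There ACACA, the acetyl-CoA carboxylase gene of fatty acid synthesis, had 2 partners in T30 and 4 in T0 (2 in T30 and 1 in T0 at spans of 20 kb or more), and AATF, a transcriptional cofactor, had 1 in T30 and 4 in T0.

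Spans were shorter in T30. The median span was 75 kb in T30 (70 to 80) and 110 kb in T0 (100 to 120), and the middle 50% of loops ran from 40 to 130 kb in T30 and from 45 to 229 kb in T0. The rest of the genome had medians of 80 kb in T30 and 200 kb in T0, so the lists also differ in span elsewhere, and the T0 median was lower on 17q. Loops of 500 kb or more were 20 in T30 (2.43%) and 47 in T0 (6.97%), where the whole lists had 3.18% in T30 and 12.7% in T0. Loops of 20 to under 50 kb were 255 in T30 and 64 in T0.

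**Figure D2:**
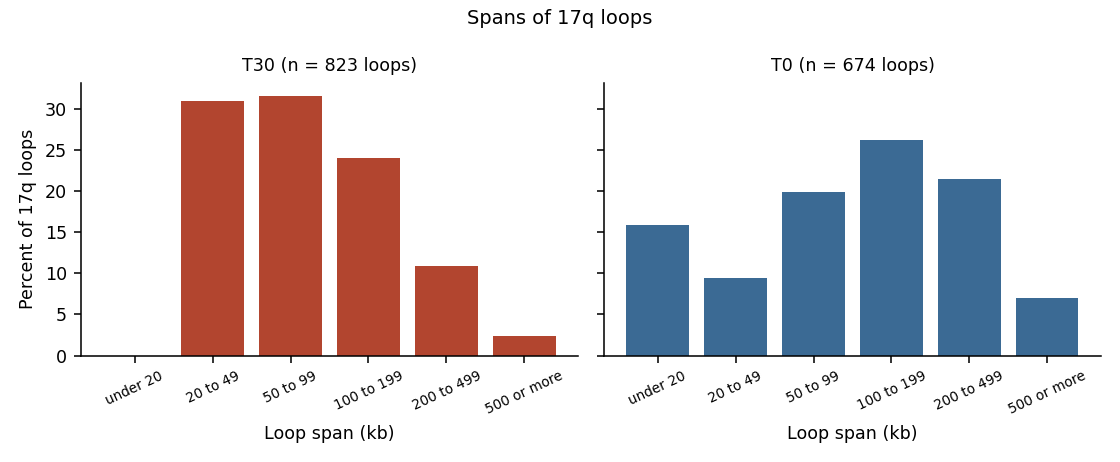
Percent of 17q loops in each class of span (kb), T30 left and T0 right. T30 has no loop under 20 kb and T0 has 107, while loops of 20 to under 50 kb make up 31.0% in T30 and 9.50% in T0.

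The shortest loops were listed in T0 alone. T30 listed no loop under 20 kb anywhere, and T0 listed 107 on 17q, 88 of 10 kb and 19 of 15 kb, which held 5181 contacts, or 33.1% of all T0 contacts there. They made up 15.9% of 17q loops in T0 and 7.30% elsewhere in T0. Their ends lay in 107 genes, of which 50 had no longer T0 loop. Among them were loops within NUP85, a nuclear pore gene, with 63 contacts, within CASC3, of the exon junction complex, with 60, and between DUS1L and FASN with 62. Since no T30 loop was this short, the minimum span of the lists moves with these values, and values at spans of 20 kb or more, a setting added for single genes after seeing the data, are given where they turn a direction or differ widely.

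The longest loop of T30 and that of T0 lay in different places. The longest in T30 joined the bins at 40615001, near SMARCE1, a subunit of the SWI/SNF remodelling complex, and 41420001, in KRT37, over 805 kb with 10 contacts. T0 listed a loop between the same bins, with 8 contacts. The next in T30 spanned 760 kb with 8 contacts, from the bin at 40910001 near KRT23. In T0 the longest joined 69525001 in MAP2K6, a stress kinase gene, and 70625001 near KCNJ2, a potassium channel gene, over 1100 kb with 16 contacts. A neighbour of 1090 kb had 10 contacts, and one of 1075 kb toward SLC39A11 had 8.

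Contacts per loop had a median of 14 in T30 (13 to 14) and 19 in T0 (18 to 19), with highest values of 82 in T30 and 70 in T0. The loops with most contacts in T30 lay in CUEDC1, a gene for a ubiquitin-binding CUE domain protein. The loop from 57900001 to 57945001 had 82 contacts and that from 57900001 to 57925001 had 80. The next were a loop within ARSG, a lysosomal sulfatase gene, with 59, one from VMP1, an autophagy gene, to TUBD1 with 53, and one of 510 kb to KRT37 with 44. In T0, 9 of the 10 loops with most contacts were under 20 kb, and the exception joined SCRN2 and SP6 to a bin near SP2, a zinc finger factor gene, with 61 contacts over 45 kb. None of the 10 in T30 was under 20 kb.

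Both ends of a loop lay in protein-coding genes for 382 of 823 loops in T30 (46.4%, 43.0 to 49.9) and 277 of 674 in T0 (41.1%, 37.4 to 44.9). No end lay in a gene for 16.4% in T30 and 17.1% in T0, and both ends lay in the same gene for 19.3% in T30 and 16.2% in T0. A loop end was in the gene for 412 of 777 genes in T30 (53.0%), against 23.4% of the 20033 genes of the genome, and for 353 in T0 (45.4%), against 19.7%. Both libraries shared 247 of them (31.8%, genome 11.4%). Counting only the 5 kb bins at a gene's borders, the numbers were 273 in T30 (35.1%, genome 13.2%) and 235 in T0 (30.2%, genome 11.6%), and with genes widened by 10 kb they were 541 in T30 (69.6%, genome 32.1%) and 501 in T0 (64.5%, genome 27.2%). More partners in T30 were found for 254 genes (32.7%, genome 16.4%) and fewer for 191 (24.6%, genome 11.5%). Only a gene with a loop can differ, and such genes were also more frequent on 17q, so these shares show no excess of change there. At spans of 20 kb or more, 276 genes on 17q had more partners in T30 and 139 had fewer. The median change in partners was 0 over 17q genes and over all genes.

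**Figure D3:**
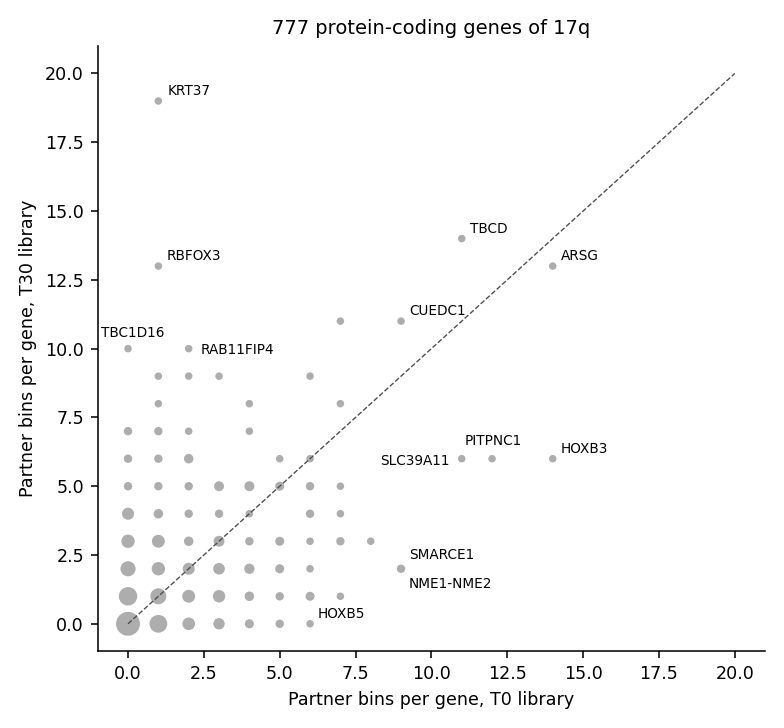
Partner bins per gene in T30 (y axis) and T0 (x axis) for the 777 protein-coding genes of 17q; point area grows with the number of genes at a position and the dashed line marks equal numbers. KRT37 stands at 19 in T30 and 1 in T0, and HOXB3 at 6 in T30 and 14 in T0.

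The genes with most partners in T30 were KRT37, TBCD, a tubulin-folding cofactor, and ARSG. KRT37 had 19 partners and 391 contacts in T30, against 1 partner and 8 contacts in T0. TBCD had 14 partners in T30 and 11 in T0 but fewer contacts, 155 in T30 and 210 in T0; at spans of 20 kb or more it had 155 contacts in T30 and 96 in T0. ARSG had 13 partners in T30 and 14 in T0, with 290 contacts in T30 and 249 in T0. CUEDC1 had 11 partners and 509 contacts in T30, against 9 partners and 260 contacts in T0. SRSF1, a splicing factor gene next to it, had 11 partners in T30 and 7 in T0 at almost equal contacts, 202 in T30 and 203 in T0.

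Further large gains lay in long genes. RAB11FIP4, a Rab11 effector, had 10 partners in T30 and 2 in T0. SRCIN1, an inhibitor of Src signalling, had 125 contacts in T30 and 35 in T0, with 9 partners in T30 and 1 in T0. CA10, a catalytically inactive member of the carbonic anhydrase family, had 82 contacts in T30 and 0 in T0. A longer gene covers more bins, and CA10 and RBFOX3 are 530 and 576 kb long.

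By partner bins, the largest losses in T30 were at HOXB3, SMARCE1 and NME1-NME2. HOXB3, a homeodomain factor, had 6 partners and 78 contacts in T30, against 14 partners and 211 contacts in T0. SMARCE1 had 2 partners in T30 and 9 in T0, with 24 contacts in T30 and 131 in T0. NME1 had 1 partner in T30 and 7 in T0, with 11 contacts in T30 and 193 in T0. The readthrough NME1-NME2, which overlaps it, counts these loops and those of NME2. At spans of 20 kb or more the readthrough had 2 partners in T30 and 6 in T0, and NME1 had 1 in T30 and 5 in T0. SLC39A11, a zinc transporter gene, had 6 partners in T30 and 11 in T0, and PITPNC1 had 6 in T30 and 12 in T0. PECAM1, an endothelial adhesion gene, had 22 contacts in T30 and 186 in T0, and IGF2BP1, an RNA-binding protein gene, had 15 in T30 and 126 in T0. Part of these T0 contacts came from loops under 20 kb: at spans of 20 kb or more the T0 contacts were 100 at NME1, 83 at PECAM1 and 77 at IGF2BP1, with the T30 values as before.

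Hubs were few in both libraries. Of 1108 bins with a loop in T30, 29 had 5 or more partners (2.62%, genome 2.21%), and of 879 in T0, 28 did (3.19%, genome 2.44%). A single partner was found for 73.0% of bins in T30 and 73.6% in T0. No bin was a hub in both libraries, although 327 bins had a loop in both. When each hub was read with the 2 bins on either side, a stretch of 25 kb, 9 of the 29 T30 hubs reached 5 partners in T0, and 8 of the 28 T0 hubs reached 5 in T30. A gene lay in 16 of the 29 hub bins in T30 and in 13 of the 28 in T0.

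The leading T30 hub lay between keratin genes. The bin from 40910001 to 40915000, 7700 bp from KRT23, a type I keratin gene, had 20 partners and 372 contacts in T30, against 2 partners and 26 contacts in T0. The next bin down, from 40905001, had 0 partners in T30 and 8 in T0. Over 25 kb around the first of these bins the 2 libraries had 21 partners in T30 and 14 in T0, a smaller gap than at the bin itself. These totals do not show whether the partners were the same. The partners of the hub bin in T30 reached KRT39, KRT40, KRT37, KRT38, KRT32 and KRT15, with most contacts, 44, to KRT37 at 510 kb. Of its 20 T30 loops, 9 had a T0 loop within 10 kb at both ends.

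KRT37 held the second hub. Its bin from 41420001 to 41425000, in which the promoter printed above lies, had 19 partners in T30 and 1 in T0. Over 25 kb it had 20 in T30 and 4 in T0. The strongest partners in T30 were the hub near KRT23 with 44 contacts, KRT38 with 39 and KRT13, a keratin of stratified mucosa, with 35. Of the 19 T30 loops, 5 had a T0 loop within 10 kb at both ends. Keratin genes are close paralogs, so reads of similar copies may be split between them.

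**Figure D4:**
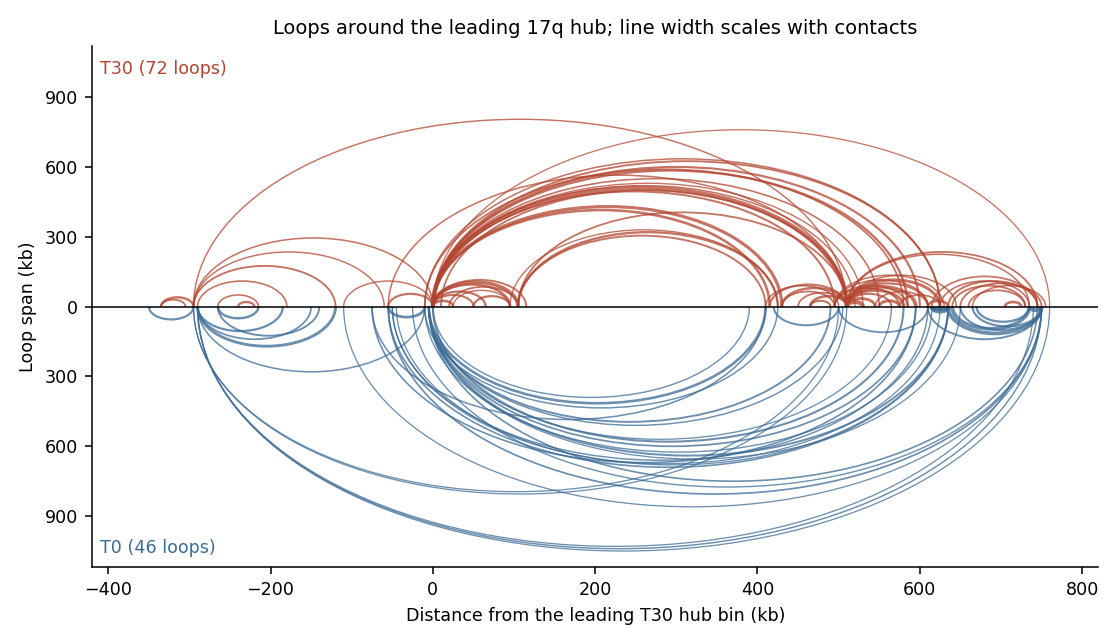
Loops with both ends from 400 kb below to 800 kb above the leading T30 hub bin, T30 above the line (72 loops) and T0 below it (46 loops). The x axis gives the distance from that bin in kb, the height gives the span in kb and line width scales with contacts; T30 arcs meet at the hub bin and 510 kb above it, and the longest T0 arcs rise above the highest T30 arc, which spans 805 kb.

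The largest connected network of each library lay over the keratin genes. It joined 46 bins by 64 loops over 1100 kb in T30 and 47 bins by 53 loops over 1375 kb in T0. In T0 it also held RARA, the retinoic acid receptor alpha gene, TOP2A, the topoisomerase of dividing cells, and IGFBP4, a binding protein of insulin-like growth factors. The arm held 332 networks in T30 and 223 in T0, of which 204 in T30 and 108 in T0 were a single pair of bins. The second network of T30, from 81250001 to 81560000, joined 21 bins around ACTG1, BAHCC1 and SLC38A10. The second of T0, from 72555001 to 73375000, joined 22 bins around SLC39A11, COG1 and SDK2.

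The third T30 hub had no T0 loop in the 25 kb around it. It lay from 76645001 to 76650000, 1244 bp from ST6GALNAC1, a sialyltransferase that makes the sialyl-Tn antigen, and had 11 partners and 235 contacts in T30. Its partners lay within 125 kb on both sides. They included MXRA7 with 38 contacts, ST6GALNAC1 with 31, ST6GALNAC2, a related sialyltransferase, with 29, JMJD6, a hydroxylase gene, with 21, and the bin of SRSF2, a splicing factor gene, with 12. In T0 a hub lay near the other end of this stretch, at 76520001, 2356 bp from CYGB, the cytoglobin gene, with 2 partners in T30 and 9 in T0. Its T0 partners also reached ST6GALNAC1, ST6GALNAC2, MXRA7 and JMJD6. At spans of 20 kb or more ST6GALNAC1 had 31 contacts in T30 and 71 in T0, and ST6GALNAC2 had 45 in T30 and 42 in T0. MXRA7 had 63 in T30 and 15 in T0, and JMJD6 had 21 in T30 and 13 in T0.

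Other T30 hubs lay in CUEDC1 and ARSG and near SOX9. The CUEDC1 bin from 57900001 had 8 partners and 316 contacts in T30 and 0 in T0, and over 25 kb it had 8 in T30 and 5 in T0. Its partners included the bin of VEZF1, a zinc finger factor, and SRSF1 with 36 contacts. The ARSG bins from 68375001 and 68295001 had 7 partners each in T30, against 2 and 1 in T0, and over 25 kb they had 7 each in T30, against 5 and 3 in T0. A bin 23585 bp from SOX9, a developmental transcription factor gene, had 7 partners in T30 and 0 in T0. The VMP1 bin from 59835001, next to MIR21, had 5 in T30 and 1 in T0.

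T0 hubs lay in PITPNC1, SLC39A11, SMARCE1 and NME1, among other genes, and some genes held a hub of each library, as ARSG did with its bin from 68260001, of 4 partners in T30 and 6 in T0. The bin from 67375001, with the PITPNC1 promoter printed above, had 4 partners in T30 and 10 in T0. Its loops ran into the gene body, with 14, 12, 12 and 10 contacts in T30 and 13 to 21 contacts in T0, and 1 further T0 loop of 10 contacts ended 7745 bp beyond the gene. The SLC39A11 bin from 72725001 had 1 partner in T30 and 9 in T0, which reached a bin 3055 bp from COG1 with 34 contacts and SDK2 at 645 kb. Over 25 kb this SLC39A11 bin had 4 in T30 and 9 in T0. Of its 9 T0 loops, 5 had a T30 loop within 10 kb at both ends. The bin from 73185001 near COG1, of the Golgi trafficking complex, had 3 in T30 and 8 in T0, and over 25 kb it had 6 in T30 and 9 in T0. The SMARCE1 bin from 40620001 had 1 in T30 and 7 in T0, the bin below it was a T30 hub of 5 in T30 and 3 in T0, and over 25 kb they had 6 in T30 and 10 in T0. The NME1 bin from 51150001, whose promoter holds the half-site, had 1 in T30 and 6 in T0. One T0 hub lay near TBC1D3B, a member of a family of near-identical copies, and is uncertain.

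Recurrence between the lists was partial. The cluster ranges of both ends overlapped a loop of T0 for 180 of 823 T30 loops (21.9%, 19.1 to 24.9), against 16.4% of all T30 loops. From T0, 173 of 674 loops overlapped a T30 loop (25.7%, 22.4 to 29.1), against 22.2% of all T0 loops. Outside 17q the shares were 15.9% in T30 (15.1 to 16.7) and 21.8% in T0 (20.8 to 22.9), and the interval of T30 on 17q lies above that of the rest. Density differs between these sets, and its part in the shares was not tested. With bins allowed to differ by 10 kb the shares on 17q were 36.8% in T30 and 42.6% in T0, and with identical bins 7.05% in T30 and 8.61% in T0.

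Displaced bins had no common direction. Among 253 pairs of loops within 10 kb at both ends, 58 had both bins identical, 129 had 1 bin identical and 66 had none. The lower end lay higher in T30 for 68 pairs and lower for 51, and the upper end lay higher for 66 and lower for 76. Recurrence varied with span and place. In T30 it was 9.80% for loops of 20 to under 50 kb and 30.8% for those of 100 to under 200 kb, with 55.0% for the 20 loops of 500 kb or more (31.5 to 76.9). In T0 it was 35.9% from 20 to under 50 kb, 44.0% from 50 to under 100 kb, 32.8% from 100 to under 200 kb, 15.9% from 200 to under 500 kb and 21.3% from 500 kb, and it was 0 of 107 under 20 kb, a class T30 does not list. For lower bins from 80 Mb it was 8.41% of 107 loops in T30 (3.92 to 15.4), against 35.6% of 59 in T30 (23.6 to 49.1) from 55 to 60 Mb. In T0 it was 15.8% of 38 loops from 80 Mb (6.02 to 31.3) and 30.5% of 59 from 55 to 60 Mb (19.2 to 43.9). T0 lists fewer loops than T30 from 80 Mb and at 20 to under 50 kb (64 against 255). The part of this in the T30 shares was not tested. Loops at hub bins recurred for 24.7% in T30 and 29.6% in T0, and those at no hub bin for 21.1% in T30 and 24.4% in T0, with overlapping intervals.

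Contacts were compared at loops matched 1 to 1. Over the genome there were 1389 pairs, with a median ratio of T30 to T0 contacts of 0.667, and each pair was set against that median by an exact two-sided binomial test with Benjamini-Hochberg adjustment over all pairs. The test compares these libraries and not the conditions. On 17q there were 158 pairs, of which 7 were higher in T30 (genome 1.58%) and 0 were lower (genome 0.0720%). At an unadjusted p of 0.05, 11 were higher (genome 5.47%) and 2 were lower (genome 1.87%). Before scaling, 131 of the 158 pairs had fewer contacts in T30.

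The 7 pairs lay at 3 places. In CUEDC1 and toward VEZF1, 4 loops shared ends. They had 80, 82, 36 and 42 contacts in T30, against 23, 28, 20 and 26 in T0. The loop from 57900001 to 57925001 was higher by 2.38 on the log2 scale after scaling (1.70 to 3.12, adjusted p from the exact binomial test 1.33e-11). In ARSG the loop from 68295001 to 68375001 had 59 contacts in T30 and 16 in T0, a scaled log2 ratio of 2.47 (1.65 to 3.36).

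At the keratin hub near KRT23 the loop to KRT37 had 44 contacts in T30 and 10 in T0, a scaled log2 ratio of 2.72 (1.71 to 3.88), and the loop to 41340001 near KRT33A had 29 in T30 and 10 in T0. None of the 7 pairs had identical bins in both lists, and with pairs of identical bins alone none of the 58 was called. With no scaling 4 pairs were higher and 3 lower, and the 4 were among the 7. Below the threshold, a loop from STAT3 to a bin near CAVIN1 had 14 contacts in T30 and 43 in T0 (adjusted p from the exact binomial test 0.513). One from CDC6, a replication licensing gene, to RARA had 20 in T30 and 52 in T0 (adjusted p from the exact binomial test 0.625).

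**Figure D5:**
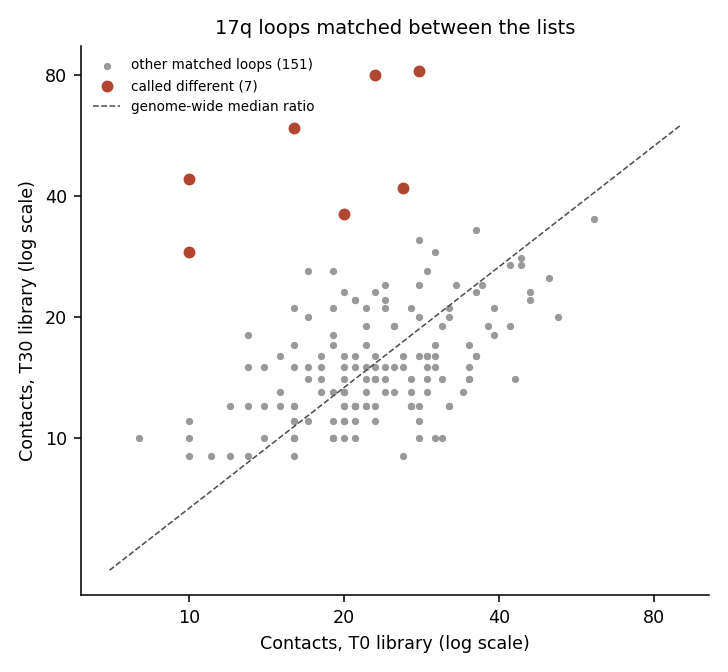
Contacts of the 158 matched 17q loops in T30 (y axis) and T0 (x axis), both on log scales, with the genome-wide median ratio as a dashed line. The 7 pairs called different stand above the line, with 29 to 82 contacts in T30 and 10 to 28 in T0, and most other pairs have fewer contacts in T30.

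Gene lists were read by their counts beside those of all 17q genes, of which 53.0% had a loop in T30 and 45.4% in T0. More partners in T30 were found for 32.7% of all 17q genes and fewer for 24.6%. Of 27 type I keratins, which form the filaments of epithelial cells, 17 had a loop in T30 and 10 in T0. With the genes widened by 10 kb, 23 had a loop in T30 and 19 in T0. Without widening, 12 had more partners in T30, 6 had fewer and 9 were equal. The summed partners of the list were then 50 in T30 and 18 in T0, and KRT37 alone gave 19 in T30 and 1 in T0. KRT32 and KRT36, hair and nail keratins, had 4 and 3 partners in T30 and 0 in T0. KRT19, a luminal keratin, had 5 partners in T30 and 6 in T0, with 75 contacts in T30 and 142 in T0; at spans of 20 kb or more it had 5 partners in each, with 75 contacts in T30 and 94 in T0. The median change over the list was 0, as over all genes.

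Of the 10 genes of the HOXB cluster 7 had a loop in T30 and 8 in T0; 3 had more partners in T30, 5 had fewer and 2 were equal, beside 32.7% with more and 24.6% with fewer over 17q. Their partners summed to 15 in T30 and 31 in T0, of which HOXB3 alone gave 6 in T30 and 14 in T0. The bin from 48590001, with 0 partners in T30 and 6 in T0, lies in both HOXB3 and HOXB5, so its loops count in both. The bin below it, from 48585001 in HOXB3, was a T30 hub, with 5 partners in T30 and 3 in T0. Over 25 kb around the bin from 48590001 there were 7 in T30 and 12 in T0. HOXB5, a homeodomain factor, had 0 contacts in T30 and 78 in T0, and HOXB13, the most posterior member, had 19 in T30 and 65 in T0. HOXB6 had 2 partners in T30 and 1 in T0. The median change was -0.500.

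Around ERBB2, the receptor tyrosine kinase of HER2-positive tumours, 11 of 20 genes had a loop in T30 and 13 in T0; 6 had more partners in T30, 9 had fewer and 5 were equal. ERBB2 itself had 1 partner in each library, with 14 contacts in T30 and 16 in T0. GRB7, an adaptor gene beside it, had 13 contacts in T30 and 57 in T0, and MED1, a Mediator subunit that binds nuclear receptors, had 0 in T30 and 52 in T0. The T0 contacts of both came from loops under 20 kb, a span that T30 does not list: at 20 kb or more GRB7 had 13 contacts in T30 and 0 in T0, and MED1 had 0 in both. Over the list, 7 genes then had more partners in T30 and 6 had fewer. RARA had 5 partners in T30 and 3 in T0, with 64 contacts in T30 and 149 in T0. The median change was 0.

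Hormone and STAT signalling genes were covered in both libraries, 14 of 20 in T30 and 15 in T0. Of these 20 genes, 5 had more partners in T30, 10 had fewer and 5 were equal. At spans of 20 kb or more, 6 had more partners in T30, 8 had fewer and 6 were equal. Over the 777 genes of 17q, 276 then had more and 139 had fewer. STAT5A and STAT5B, the factors of prolactin signalling, had 3 and 2 partners in T30 and 0 in T0. STAT3 had 4 partners in T30 and 3 in T0, with 37 contacts in T30 and 71 in T0. SOCS3, a feedback inhibitor of that pathway, had 27 contacts in T30 and 91 in T0 (41 in T0 at spans of 20 kb or more), and PRKCA, protein kinase C alpha, had 38 in T30 and 159 in T0. The median change was -0.500.

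In the 17q23 stretch often gained in breast tumours, 10 of 18 genes had a loop in each library; 4 had more partners in T30, 3 had fewer and 11 were equal, with a median change of 0. VMP1 had 172 contacts in T30 and 72 in T0. TBX2, a T-box repressor, had 7 partners in T30 and 4 in T0, and TRIM37, a ubiquitin ligase, had 2 in T30 and 6 in T0. Of 16 housekeeping genes, 7 had a loop in T30 and 9 in T0; 5 had more partners in T30, 7 had fewer and 4 were equal, with a median change of 0; at spans of 20 kb or more, 5 had more partners in T30 and 4 had fewer. RPL19, a ribosomal protein gene, had 15 contacts in T30 and 54 in T0, and ACTG1, a cytoskeletal actin, had 19 in T30 and 13 in T0.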

How the data were processed

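HiChIP with an antibody against PR gave 1 loop list per library, T30 and T0; the series' other samples were not used here. The deposited contacts of a loop are raw counts, that is, the read pairs joining its 2 bins of 5 kb, as the file headers name them. Each loop's p-value and q-value are the authors', bias-corrected per the file headers, with listed q under 0.05 and near contacts merged. The deposited fraction per cluster of contacts entered no result. The submitters' processing notes name Bowtie, hg38 and GRCh38; the names of the deposited lists carry FitHiC with no version, and whether libraries were pooled is not given in the sources used here.

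Genes came from RefSeq (GRCh38.p14, 20033 protein-coding), which is the build of the loops, and a gene counted where a loop bin overlapped it. Partners of a gene or bin are the different bins at the far ends of its loops. A loop recurred where both cluster ranges overlapped by 1 bp. Intervals are exact binomial (Clopper-Pearson), exact Poisson, exact conditional for ratios and order-statistic for medians, at 95%. They treat loops as independent, although loops share ends. Loop numbers were not adjusted for coverage or copy number. The text names part of the loops, bins, windows and genes with the highest values or largest changes, the longest loops, the called pairs, and list members; NUP85, DUS1L, SP6 and the microRNAs were chosen after their values were seen, as were CBX8, CCDC57, NPLOC4 and TSPAN10. Some items are not reported here. The members and lists were chosen with earlier results of these data known. Steps were tested on simulated data. Python 3.11.15, pandas 2.3.3, scipy 1.17.1 and networkx 3.6.1 were used.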

Additional observations from a re-analysis of the deposited data

How the results depend on the processing

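Of the 62 settings tried over all results, 35 left the value within its interval or within 1.5 times its count. The ratio of T30 to T0 loops was 0.939 with lists of equal length, 1.45 at spans of at least 20 kb and 1.08 without loops from 79 Mb, a setting added after seeing the data. The busiest window held 5.04% of T0 ends with windows shifted by 500 kb, against 6.38%. The T0 median span was 130 kb at spans of at least 20 kb, and median contacts were 15 in T30 and 20 in T0 at q under 0.01 and 17 in T0 at spans of at least 20 kb. Genes with a loop end were 273 in T30 and 235 in T0 by gene ends alone. Hubs were 3 in T30 and 1 in T0 at 10 partners, 45 in T30 and 44 in T0 with neighbouring bins joined, and 16 in T30 and 12 in T0 at q under 0.01. Recurrence was 7.05% in T30 and 8.61% in T0 with identical bins, 36.8% in T30 and 42.6% in T0 within 10 kb, and 26.2% in T30 and 31.3% in T0 at q under 0.01; in T0 it was 30.5% at spans of at least 20 kb. Matched loops higher in T30 were 4 with no scaling, 0 with identical bins and 4 at q under 0.01, and 3 were lower with no scaling. The cause was not tested. No paired analysis was possible because each condition is 1 library. Listed contacts limit the depth: a loop of 8 contacts is near the lower limit of both lists.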
